A study of Mus musculus with 278 samples.

Results

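This report describes 9 genes for secreted signals of inflamed skin in single cultured mouse cells labelled keratinocytes. The genes are the chemokines Ccl2, Ccl7, Cxcl1, Cxcl5 and Cxcl12 and the cytokines Il1a, Il6, Il33 and Tslp. They were taken by symbol from a list of 10, of which 9 have a row among the 14145 genes of the expression table. The tenth, Ccl20, was not analysed here. All 9 passed the filter on low values (TPM, a transcript level scaled to gene length and library size, over 1 in more than 5 cells), as did 12355 genes in all.

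Chemokines are small secreted proteins that guide leukocytes along concentration gradients by binding receptors on their surface. CC chemokines such as Ccl2 and Ccl7 attract monocytes, while the CXC chemokines Cxcl1 and Cxcl5 attract neutrophils through Cxcr2, and Cxcl12 retains and guides cells through Cxcr4. Keratinocytes, the main cells of the epidermis, store Il1a and release it on injury, and Il1a acts on neighbouring cells, fibroblasts included, to switch on chemokine and Il6 genes through the transcription factor NF-κB. Il33 and Tslp are alarm cytokines of barrier tissues known for allergic inflammation.

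Keratinocytes from adult mouse dorsal skin were cultured as a mixture of 9 parts wild-type cells to 1 part K14ΔNβ-cateninER cells. The latter carry a stabilised beta-catenin that is driven by the keratin 14 promoter and that 4-hydroxy-tamoxifen (4-OHT) activates. The study asked how wild-type cells respond to Wnt-activated neighbours. Treated wells received 200 nM 4-OHT for 24 h and untreated wells the solvent DMSO, and single cells were captured on microfluidic chips. Both arms therefore held transgenic cells, and the transgenic cells were not told apart here. The library names fall into 2 series, AG and GHA501A, each with both arms. This gave 4 sets of cells, with 66 cells in AG untreated, 64 in AG treated, 71 in GHA501A untreated and 69 in GHA501A treated, 270 in all. The labels name no animal or culture, so cells are not replicates and a set counts as 1 sample. A further 8 cells have a name and a treatment label that disagree and were left out.

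All cells are labelled keratinocytes, and this was checked against marker genes. The mean log2(TPM + 1) of 5 fibroblast markers (Col1a1, Col1a2, Col3a1, Col6a1 and Dcn) was set against that of 9 keratinocyte markers. Of the 140 GHA501A cells, 62 untreated and 56 treated cells had the higher mean for the fibroblast markers, and 21 cells were the reverse. The first are called fibroblast-marker-high and the second keratinocyte-marker-high cells below. Dcn was over 1 TPM in only 28% of fibroblast-marker-high cells (median 0 TPM). Only 5 of 10 listed fibroblast markers had a row, with Pdgfra, Pdgfrb, Lum, Thy1 and Fbln2 missing. All 130 AG cells but 1 were keratinocyte-marker-high, and 1 cell in each series was intermediate. Median Krt14, a basal keratin, was 4934 TPM in the AG keratinocyte-marker-high cells, 2023 TPM in those of GHA501A and 3.7 TPM in fibroblast-marker-high cells. Only 6 of the 270 cells lay within 1 unit of a class limit. Immune, endothelial and melanocyte lists held 3, 2 and 3 measured genes, and Adgre1, Fcer1g, Kdr, Tek and Mlana were over 1 TPM in at most 2 cells of any class. The melanocyte gene Pmel was over 1 TPM in 75.2% of AG keratinocyte-marker-high, 90.5% of GHA501A keratinocyte-marker-high and 31.4% of fibroblast-marker-high cells. Lyz2 and Tyr were listed above 1 TPM in 71.4% to 100% of the cells of every class. Median genes over 1 TPM per cell ranged from 6008 to 6392 between sets.

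The series differ in more than cell class. In 403 of the 12355 genes, over 50% of GHA501A cells exceeded 1 TPM while no AG cell exceeded 5 TPM, and 64 genes showed the reverse. Genes that every cell uses are among them. Ctnnb1 (beta-catenin itself) reached at most 0.419 TPM in AG against a median of 56.5 TPM in GHA501A, and the actin nucleator Actr3 at most 0.703 TPM against a median of 36.8 TPM. The share of such genes that comes from how the 2 series were quantified was not tested, and among the 9 genes this touches Il33. Comparisons between series below therefore set 2 library series side by side, whose cell class, libraries and quantification cannot be told apart.

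The promoters are shown because NF-κB is the classical activator of several of these genes. The 250 bases before the RefSeq transcription start (GRCm38.p6) were searched on both strands for the κB motif (GGG, any 3 bases, then TTCC), the AP-1 motif TGANTCA and the TATA box TATAAA, with capitals marking κB and TATA matches. Of 32851 promoters, 4.65% held the κB letters, 6.75% the AP-1 letters and 12.4% the TATA letters. The Cxcl1 promoter (chr5:90890995-90891244, plus strand) held 3 κB matches, starting 89, 71 and 70 bases before the start, the last pair overlapping. The Il6 promoter (chr5:30012864-30013113, plus strand) held 1 κB match 44 bases before the start and 1 AP-1 match farther upstream, near the window's edge. The Il1a promoter (chr2:129309973-129310222, minus strand) held no κB match, a TATA box 32 bases and an AP-1 match 12 bases before the start. The windows of Cxcl12 and Il33 held no κB match. No window of Ccl2, Ccl7, Cxcl5 or Tslp was searched here. A match describes letters only.
Cxcl1: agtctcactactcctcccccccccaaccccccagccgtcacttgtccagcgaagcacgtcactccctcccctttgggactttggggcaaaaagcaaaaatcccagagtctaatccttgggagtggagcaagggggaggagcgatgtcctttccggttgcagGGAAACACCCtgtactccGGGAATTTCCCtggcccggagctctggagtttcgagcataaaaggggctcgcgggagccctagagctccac
Il6: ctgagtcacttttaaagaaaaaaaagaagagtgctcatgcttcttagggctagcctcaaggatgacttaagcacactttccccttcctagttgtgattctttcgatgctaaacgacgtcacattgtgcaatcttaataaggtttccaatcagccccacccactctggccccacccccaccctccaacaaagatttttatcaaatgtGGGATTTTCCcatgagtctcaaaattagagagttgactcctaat
Il1a: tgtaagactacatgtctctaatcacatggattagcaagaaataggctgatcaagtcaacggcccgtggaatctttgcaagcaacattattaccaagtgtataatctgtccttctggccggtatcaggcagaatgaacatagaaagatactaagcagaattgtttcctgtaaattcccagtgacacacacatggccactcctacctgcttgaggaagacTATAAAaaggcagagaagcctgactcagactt

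**Figure D1:**
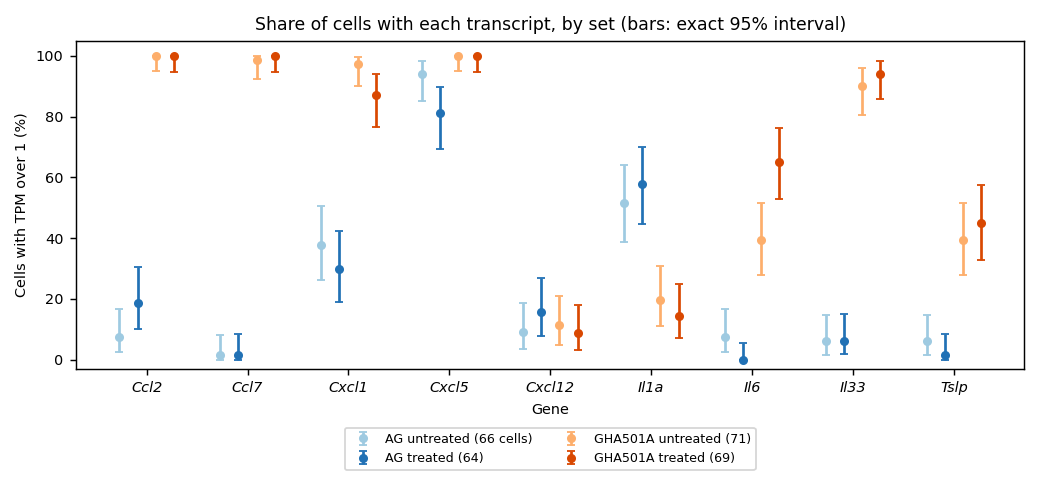
Share of cells with TPM over 1 (%, vertical axis) for each gene (horizontal axis) in the 4 sets, with exact 95% binomial intervals that cover counting error only. The shares of 7 genes sit higher in both GHA501A sets, Il1a sits lower, and Cxcl12 overlaps.

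Shares are given as the percentage of cells with TPM over 1, called positive, with exact (Clopper-Pearson) 95% intervals that cover counting error only. In share, 7 of the 9 genes were higher in both GHA501A sets than in both AG sets, as were 34.8% of the 12355 genes. Only Il1a was lower in both, as were 40.5% of all genes, and Cxcl12 overlapped. Cells of AG were positive for a median of 2 of the 9 genes and cells of GHA501A for a median of 6. In GHA501A untreated 67 of 71 cells (94.4%) were positive for at least 5 of them, against 2 of 66 in AG untreated (3.03%) and 0 of 64 in AG treated.

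The monocyte chemokines were rare in AG and present in nearly every GHA501A cell. Ccl2 (chr11:82035571-82037453, plus strand) was positive in 5 of 66 AG untreated cells (7.58%, interval 2.51 to 16.8), 12 of 64 AG treated cells (18.8%, 10.1 to 30.5), and in all 71 and all 69 GHA501A cells. Mean Ccl2 was 22.5 TPM in AG untreated, 22.2 TPM in AG treated, 3113 TPM in GHA501A untreated and 2407 TPM in GHA501A treated. Both GHA501A sets stood far above both AG sets. The few positive AG cells reached 718 TPM, and the top 3 cells held 95.6% of the summed Ccl2 of AG untreated.

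Ccl7, which lies beside Ccl2 (chr11:82045712-82047525, plus strand), was positive in 1 of 66 and 1 of 64 AG cells, at 193.6 and 104.1 TPM. In GHA501A it was positive in 70 of 71 untreated cells (98.6%) and in all 69 treated cells. Its mean was 2.93 TPM in AG untreated, 1.63 TPM in AG treated, 2156 TPM in GHA501A untreated and 2550 TPM in GHA501A treated. The sets of the 2 series did not overlap.

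The neutrophil chemokines were present in both series. Cxcl5 (chr5:90759360-90761624, plus strand) was the member most often positive in AG, in 62 of 66 untreated cells (93.9%, 85.2 to 98.3) and 52 of 64 treated cells (81.2%, 69.5 to 89.9), and it was positive in all 140 GHA501A cells. Among positive cells its median was 83.9 TPM in AG untreated, 41.5 TPM in AG treated, 966 TPM in GHA501A untreated and 722 TPM in GHA501A treated. The third quartile of the positive cells was 815 TPM in AG untreated, above the first quartile of both GHA501A sets (247 and 422 TPM), and 152.1 TPM in AG treated, below both. The highest AG cell held 7593 TPM.

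Cxcl1 (chr5:90891241-90893115, plus strand) was positive in 25 of 66 AG untreated cells (37.9%, 26.2 to 50.7) and 19 of 64 AG treated cells (29.7%, 18.9 to 42.4). In GHA501A the shares were 97.2% (90.2 to 99.7) untreated and 87% (76.7 to 93.9) treated. Mean Cxcl1 was 119.1, 27.5, 372 and 277 TPM in AG untreated, AG treated, GHA501A untreated and GHA501A treated. In AG untreated 1 cell held 30.4% of the summed Cxcl1, and the mean without it was 84.1 TPM.

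Cxcl12, the ligand of Cxcr4 (chr6:117168535-117181367, plus strand), was rare in every set. It was positive in 9.09%, 15.6%, 11.3% and 8.7% of the cells in the same order, and no cell exceeded 66.5 TPM. The intervals of all 4 sets overlapped.

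Among the cytokines, Il1a (chr2:129299610-129309972, minus strand) was the only member with a lower share in both GHA501A sets than in both AG sets. It was positive in 51.5% (38.9 to 64) of AG untreated and 57.8% (44.8 to 70.1) of AG treated cells, against 19.7% (11.2 to 30.9) and 14.5% (7.17 to 25) of GHA501A untreated and treated cells. Its mean was 110.6, 211, 47.6 and 23.2 TPM. The AG treated mean held 1 cell at 5991 TPM and was 119.1 TPM without it. In GHA501A untreated 1 cell at 2131 TPM held 63.1% of the sum, and the mean without it was 17.8 TPM.

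Il6, the acute-phase cytokine (chr5:30013114-30019981, plus strand), was positive in 5 of 66 AG untreated cells (7.58%, 2.51 to 16.8) and in 0 of 64 AG treated cells (interval 0 to 5.6). A limit of 3 counts of the total allows a share of up to 4.69% there. In GHA501A it was positive in 28 of 71 untreated cells (39.4%, 28 to 51.7) and 45 of 69 treated cells (65.2%, 52.8 to 76.3). Levels were low, with medians in positive cells of 16.1 TPM in AG untreated, 8.64 TPM in GHA501A untreated and 7.66 TPM in GHA501A treated. Few cells carried most of it, since the top 3 cells held 58.3% of the summed Il6 in GHA501A untreated and 53.9% in GHA501A treated.

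Il33 (chr19:29925114-29960718, plus strand) was listed near 0 in AG, where 4 of 66 and 4 of 64 cells were positive and none exceeded 3.6 TPM. In GHA501A 90.1% (80.7 to 95.9) of untreated and 94.2% (85.8 to 98.4) of treated cells were positive, with means of 212 and 277 TPM. It is 1 of the 403 genes with no AG cell above 5 TPM.

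Tslp was positive in 4 of 66 AG untreated cells and 1 of 64 AG treated cells. In GHA501A 39.4% (28 to 51.7) of untreated and 44.9% (32.9 to 57.4) of treated cells were positive. Mean levels were 28.4, 2.58, 29.9 and 72.2 TPM in AG untreated, AG treated, GHA501A untreated and GHA501A treated. One cell at 1744 TPM held 93.2% of the summed Tslp of AG untreated, whose mean without it was 1.95 TPM.

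The difference between the series was tested across all genes by a limma fit to the 4 set means, as log2(mean TPM + 1), with treatment in the model and 1 residual degree of freedom. A gene was called where the Benjamini-Hochberg adjusted p over the 12355 genes was under 0.05 and the log2 change over 0.5. Higher in GHA501A were 5 of the 9 genes, beside 18.2% of all genes tested, and lower was 1 (Il1a), beside 10.8% of all genes. The filter pooled the series, and Ccl7, Il6 and Tslp (2, 5 and 5 positive AG cells) passed it only through GHA501A cells. Their series differences, here and within keratinocyte-marker-high cells, carry that limit. Ccl7 was higher by 9.51 ± 0.38 (SE, adjusted p = 0.00181). Il33 was higher by 7.71 ± 0.34 (adjusted p = 0.00181) and Ccl2 by 6.87 ± 0.34 (adjusted p = 0.00181). Il6 was higher by 4.45 ± 0.58 (adjusted p = 0.00726) and Cxcl1 by 2.46 ± 0.51 (adjusted p = 0.027), and Il1a had a change of -2.17 ± 0.56 (adjusted p = 0.0495). Cxcl5 (1.67 ± 0.53, adjusted p = 0.0816), Tslp (2.22 ± 1.06, adjusted p = 0.193) and Cxcl12 (-0.37 ± 0.34, adjusted p = 0.455) did not pass. The p-values measure the spread between these sets only. Where AG is listed near 0 the size depends on the pseudocount, and with 0.1 in place of 1 the difference was 9.86 for Il33 and 6.37 for Il6. The calls of Cxcl1 and Il1a were lost under 3 and 4 of the alternatives, given in the closing section. With 1 set left out no residual degree of freedom remained, and Cxcl1 ranged from 1.63 (without AG treated or without GHA501A treated) to 3.29 (without either untreated set), and Il1a from -3.13 (without either untreated set) to -1.20 (without either treated set). Ccl2, Ccl7 and Il1a are also among the state markers that the study chose on these cells, so their differences are not independent evidence.

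**Figure D2:**
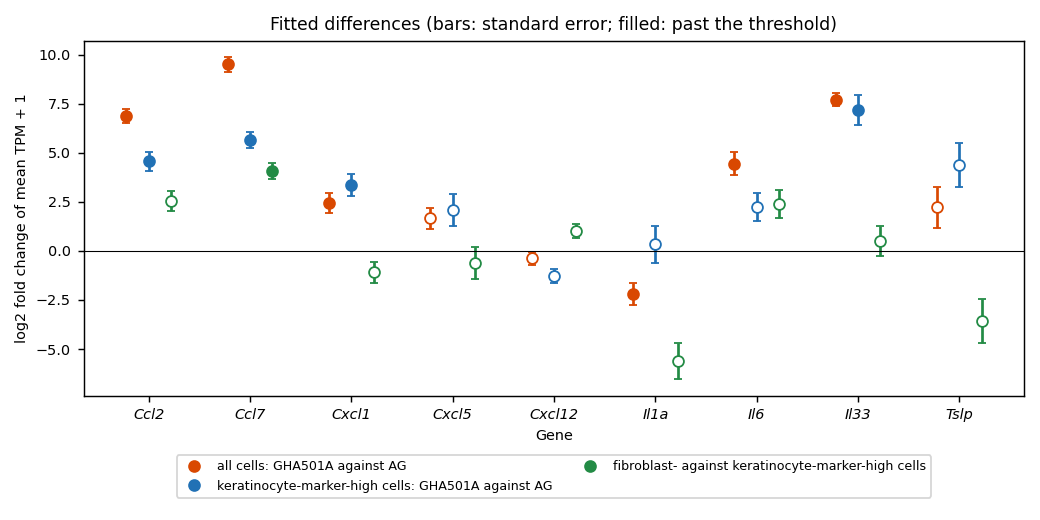
Fitted log2 fold changes of mean TPM + 1 (vertical axis) of each gene (horizontal axis) with standard errors, for GHA501A against AG in all cells, GHA501A against AG within keratinocyte-marker-high cells, and fibroblast- against keratinocyte-marker-high cells. Filled points passed the threshold at the main settings, and Ccl7 is the gene filled in all 3.

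Between the marker classes of GHA501A the genes fell into different patterns. Ccl2 and Ccl7 were positive in both classes at very different levels. In fibroblast-marker-high cells median Ccl2 was 1817 TPM untreated and 1683 TPM treated, and in keratinocyte-marker-high cells 16.5 TPM and 82.3 TPM. Median Ccl7 was 1565 and 1925 TPM in the former and 11.8 and 115.9 TPM in the latter. All 21 keratinocyte-marker-high cells of GHA501A were positive for both, whereas among such cells of AG 16 were positive for Ccl2 and 2 for Ccl7.

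Fibroblast markers moved in the same way. Col1a1 was over 1 TPM in all 21 keratinocyte-marker-high cells of GHA501A, at a median of 22.6 TPM beside 1147 TPM in fibroblast-marker-high cells, while its median in AG was 0. The summed 5 fibroblast markers ranged from 7.75 to 530 TPM in the 21 cells and from 506 to 25276 TPM in the fibroblast-marker-high cells. Across the 21 cells Ccl2 and Col1a1 had a Pearson's r of 0.70 on the log2(TPM + 1) scale, and Ccl7 and Col1a1 of 0.80. The r with Col1a1 was 0.44 for Cxcl5, 0.37 for Il33 and 0.04 for Cxcl1. Whether fibroblast RNA in these libraries has a part in the Ccl2 and Ccl7 values was not tested.

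**Figure D3:**
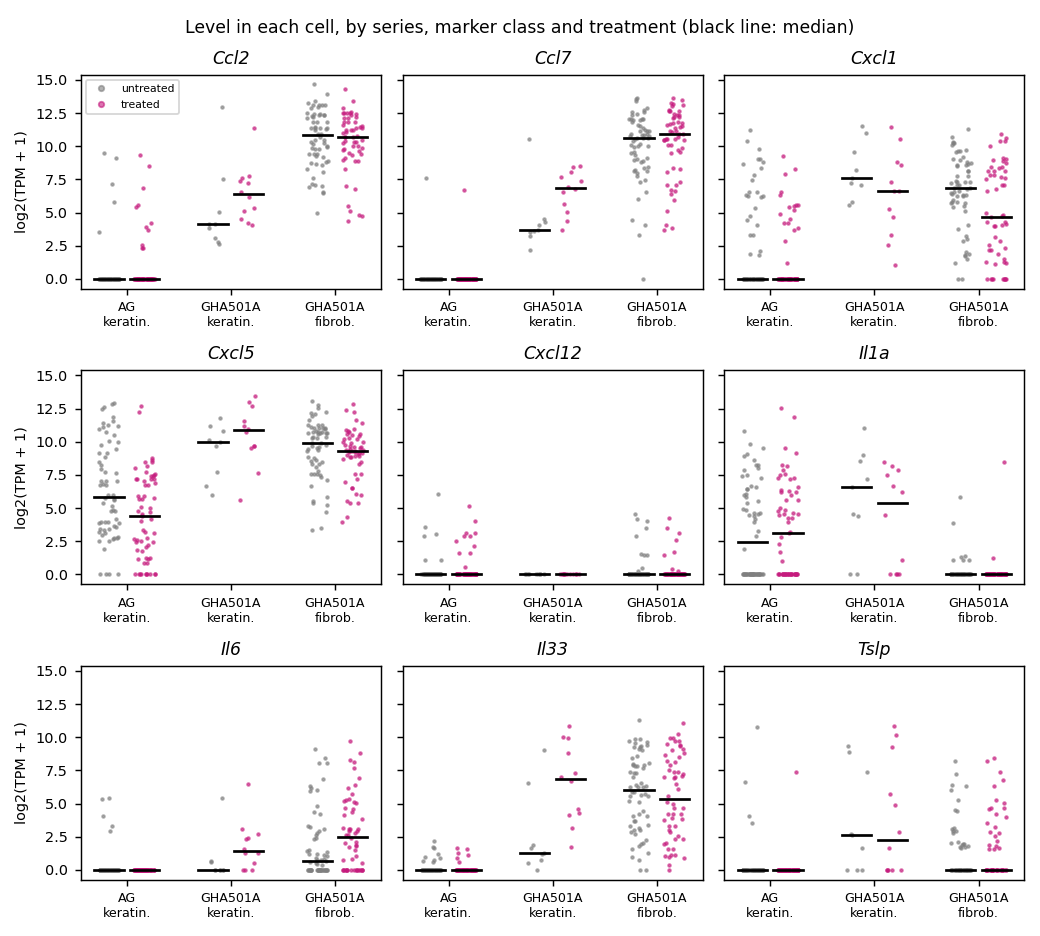
Level of each gene in each cell as log2(TPM + 1) (vertical axis) by series and marker class (horizontal axis; keratin. and fibrob. stand for keratinocyte- and fibroblast-marker-high), untreated in grey and treated in magenta, with black lines at the medians. Ccl2 and Ccl7 are near 0 in most AG cells and highest in fibroblast-marker-high cells, and Il1a is mostly in keratinocyte-marker-high cells of both series.

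Il1a and Tslp had larger shares in keratinocyte-marker-high cells. In GHA501A Il1a was positive in 7 of 9 untreated (77.8%, 40 to 97.2) and 8 of 12 treated (66.7%, 34.9 to 90.1) keratinocyte-marker-high cells, and in 11.3% (4.66 to 21.9) and 3.57% (0.435 to 12.3) of fibroblast-marker-high cells. Its share in keratinocyte-marker-high cells was 51.5% and 57.1% in AG untreated and treated. Tslp was positive in 6 of 9 (66.7%, 29.9 to 92.5) and 7 of 12 (58.3%, 27.7 to 84.8) keratinocyte-marker-high cells and in 35.5% (23.7 to 48.7) and 41.1% (28.1 to 55) of fibroblast-marker-high cells, so the intervals overlapped. Mean Tslp was 145.9 and 313 TPM in the former and 13.1 and 21.9 TPM in the latter, untreated and treated. Without the highest cell the keratinocyte-marker-high means were 82.3 and 168.8 TPM, and their medians over all cells were 5.09 and 4.21 TPM.

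Cxcl1 was positive in all 21 keratinocyte-marker-high cells of GHA501A and in 96.8% and 83.9% of the fibroblast-marker-high cells. Cxcl5 was positive in every cell of both classes, with medians of 1001 and 1854 TPM in keratinocyte-marker-high and 966 and 624 TPM in fibroblast-marker-high cells, untreated and treated. Cxcl12 was positive in 12.9% and 10.7% of fibroblast-marker-high cells and in 0 of 21 keratinocyte-marker-high cells (interval 0 to 16.1, and up to 14.3% by 3 counts of the total). In share, Cxcl12 alone was higher in both fibroblast-marker-high sets than in both keratinocyte-marker-high sets, as were 15.8% of all genes, and Cxcl1, Il1a and Tslp were lower, as were 24.2% of all genes. Il33 was positive in 93.5% and 92.9% of fibroblast-marker-high cells, and in 6 of 9 untreated (median 1.44 TPM) and 12 of 12 treated (median 113.3 TPM) keratinocyte-marker-high cells. Over 100 TPM, a limit chosen after seeing the data, Ccl2 was found in 95.2% and 91.1% of fibroblast-marker-high and in 22.2% and 41.7% of keratinocyte-marker-high cells.

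The class difference was tested with limma on the means of 6 class groups, those of at least 5 cells of 1 class in 1 set, with series and treatment in the model and 2 residual degrees of freedom. Only Ccl7 of the 9 genes passed, at 4.07 ± 0.40 (adjusted p = 0.0341) higher in fibroblast-marker-high cells, beside 0.947% of all genes called higher. Ccl2 differed by 2.54 ± 0.49 (adjusted p = 0.097), Il6 by 2.39 ± 0.69 (adjusted p = 0.195) and Cxcl12 by 1.02 ± 0.35 (adjusted p = 0.254). Il1a differed by -5.61 ± 0.94 (adjusted p = 0.0748), Tslp by -3.58 ± 1.13 (adjusted p = 0.221) and Cxcl1 by -1.09 ± 0.55 (adjusted p = 0.407). Cxcl5 (-0.63 ± 0.82, adjusted p = 0.768) and Il33 (0.52 ± 0.76, adjusted p = 0.798) lay within 1 standard error of 0. The Ccl7 call was lost with no filter on genes, on the mean of log2(TPM + 1), and with class limits of 0 and 2. On the mean of log2(TPM + 1), Ccl2, Il1a and Tslp passed instead, as given in the closing section. AG has no fibroblast-marker-high group, so the class difference comes from GHA501A alone. Leaving out an AG set therefore cannot move the Ccl7 difference of 4.07 and is no check of its size. Without AG untreated or without AG treated, the adjusted p of Ccl7 was 0.336 and no gene at all was called.

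Within keratinocyte-marker-high cells the same fit set GHA501A against AG, and 4 of the 9 genes were called higher, beside 11% of all genes. Il33 differed by 7.17 ± 0.76 (adjusted p = 0.00783), Ccl7 by 5.65 ± 0.40 (adjusted p = 0.00405), Ccl2 by 4.57 ± 0.49 (adjusted p = 0.00806) and Cxcl1 by 3.35 ± 0.55 (adjusted p = 0.0226). Tslp (4.38 ± 1.13, adjusted p = 0.0671), Il6 (2.24 ± 0.69, adjusted p = 0.101), Cxcl5 (2.07 ± 0.82, adjusted p = 0.169), Cxcl12 (-1.28 ± 0.35, adjusted p = 0.0796) and Il1a (0.34 ± 0.94, adjusted p = 0.834) did not pass.

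Single cells weighed heavily on the Ccl2 means of GHA501A here, and on its untreated Ccl7 mean. In GHA501A untreated 1 of the 9 keratinocyte-marker-high cells, the one nearest the class limit, held 7793 TPM of Ccl2 and 1472 TPM of Ccl7. Without it the means were 35 TPM and 12.9 TPM instead of 897 TPM and 175.1 TPM. The same cell held 523 TPM of Il33, whose mean was 69.7 TPM with it and 13 TPM without it. In GHA501A treated the cell nearest the limit held 2683 TPM of Ccl2, and the mean was 308 TPM with it and 92.3 TPM without it. Mean Ccl7 in that set was 149.2 TPM with its highest cell and 129.5 TPM without that cell. With the class limit at 2, which left 8 and 11 cells, the difference was 1.36 (adjusted p = 0.189) for Ccl2 and 3.78 (adjusted p = 0.0835) for Ccl7. Without AG untreated or without AG treated all 4 calls were lost, with adjusted p from 0.16 to 0.189.

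Treatment with 4-OHT was compared over the 4 sets with the series as a block. None of the 9 genes passed and 0 of the 12355 genes did (0%), with 459 genes at an unadjusted p under 0.05. Adjusted p was 0.998 for every one of the 9 genes. The log2 change was -1.25 ± 0.51 for Cxcl1, -0.91 ± 0.53 for Cxcl5, -0.90 ± 1.06 for Tslp and -0.42 ± 0.58 for Il6. The other 5 lay between -0.20 and 0.15. With 2 sets a side, an exact permutation test of any single value cannot go below a two-sided p of 0.333.

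**Figure D4:**
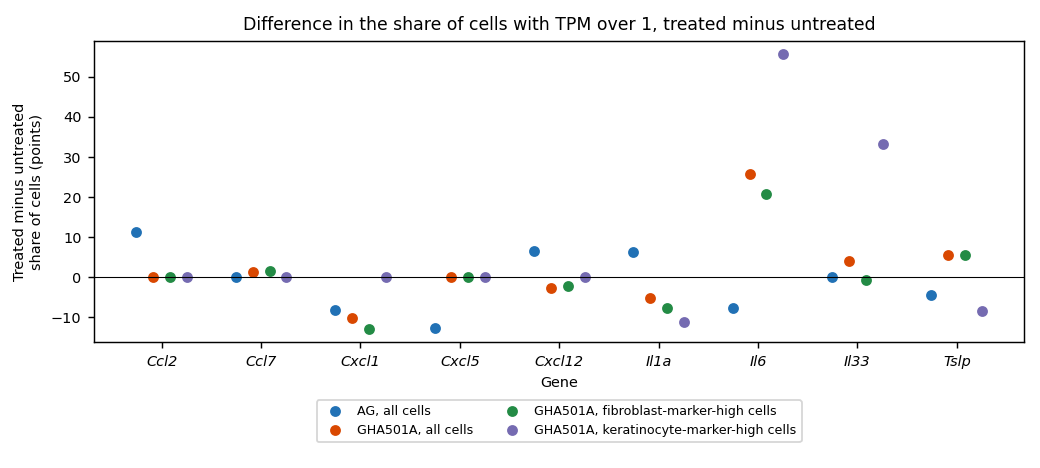
Treated minus untreated share of cells with TPM over 1 in percentage points (vertical axis) for each gene (horizontal axis), in all cells of AG, all cells of GHA501A and the 2 marker classes of GHA501A. Points carry no error bar because each is the difference of 2 sets, and Il6 in GHA501A is the largest difference in all cells at 25.8 points.

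Within each series the largest difference in share was that of Il6 in GHA501A, 25.8 points higher in treated cells. It was the only member to differ by over 20 points there, as did 2.40% of all genes, and in AG 0 members did, as did 1.76% of all genes. The 20-point limit was chosen after seeing the data. The size depends on the limit, since at over 0 TPM the shares were 54.9% (42.7 to 66.8) untreated and 71% (58.8 to 81.3) treated, with overlapping intervals. By class Il6 was positive in 1 of 9 untreated against 8 of 12 treated keratinocyte-marker-high cells, and in 43.5% (31 to 56.7) against 64.3% (50.4 to 76.6) of fibroblast-marker-high cells. At over 10 TPM the keratinocyte-marker-high shares were 11.1% untreated and 8.33% treated, and the fibroblast-marker-high shares 19.4% and 33.9%. In AG the Il6 share over 1 TPM was lower in treated cells, with a difference of -7.58 points and overlapping intervals. At over 10 TPM Il6 was found in 18.3% and 30.4% of GHA501A untreated and treated cells, and at over 100 TPM in 7.04% and 8.7%. Each arm is 1 set per series, so no test was possible within a series.

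Cxcl1 and Cxcl5 had lower means in treated AG cells. Mean Cxcl5 was 862 TPM untreated and 248 TPM treated, and the median over all cells 57.5 and 18.5 TPM. In AG treated 1 cell at 6502 TPM held 40.9% of the summed Cxcl5, and the mean without it was 148.9 TPM. The share of cells over 100 TPM was 47% (34.6 to 59.7) untreated and 32.8% (21.6 to 45.7) treated, with overlapping intervals. In GHA501A the Cxcl5 means were 1483 and 1461 TPM. Median Cxcl1 over all GHA501A cells was 136.6 TPM untreated and 30.3 TPM treated.

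**Figure D5:**
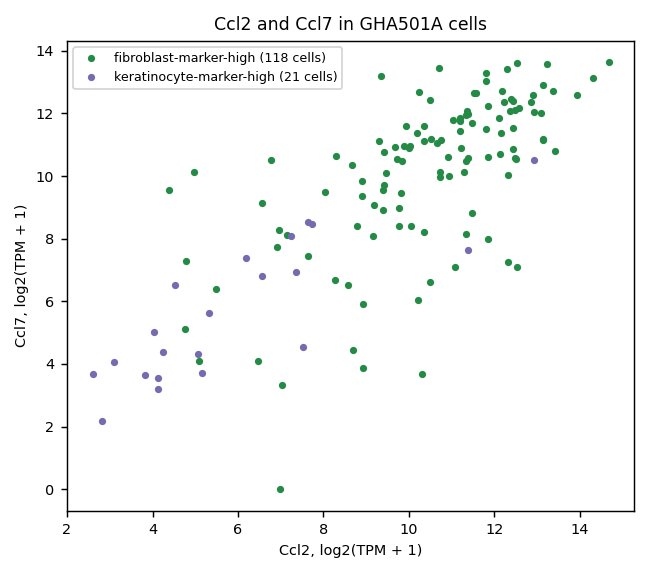
Ccl2 (horizontal axis) against Ccl7 (vertical axis) as log2(TPM + 1) in the GHA501A cells, fibroblast-marker-high in green and the 21 keratinocyte-marker-high in purple. Cells high in one were mostly high in the other, across and within both classes (r of 0.63 and 0.84).

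Cell by cell, the neighbouring genes Ccl2 and Ccl7 varied together. Pearson's r of log2(TPM + 1) was 0.63 over the fibroblast-marker-high cells (0.65 untreated and 0.62 treated) and 0.84 over the 21 keratinocyte-marker-high cells of GHA501A. In fibroblast-marker-high cells r was 0.51 for Ccl2 and Cxcl5, 0.52 for Ccl7 and Cxcl5 and 0.49 for Cxcl1 and Cxcl5. In the keratinocyte-marker-high cells of AG (66 untreated and 63 treated) r was 0.40 for Cxcl1 and Cxcl5 and 0.39 for Cxcl5 and Il1a. These are descriptions across cells of the same series and class, with both arms pooled unless named and without a test.

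Over the 140 GHA501A cells, the genes most like Ccl2 out of 10206 compared were Ccl7 (r = 0.76) and Serpinf1 (0.56), which encodes the secreted inhibitor of blood vessel growth PEDF. Those most like Ccl7 were Ccl2 and Serpinf1 (0.53). Cxcl1 was most like Cxcl5 (0.47) and the cystine transporter gene Slc7a11 (0.45), and Cxcl5 most like Cxcl1 and Ncln (0.40). Tslp was most like Padi4 (0.46), a protein deiminase gene, and Serinc2 (0.43). Over the 130 AG cells Il1a was most like the transporter gene Abcc3 (0.48) and Cwh43 (0.43), and Cxcl12, with 16 positive cells, most like the transcription factor gene Zeb1 (0.47) and Rrad (0.42). No gene reached an r of 0.4 with Il33 or Il6. The GHA501A values mix both marker classes.

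Other genes of the pathway were counted from fixed lists. Of 13 further chemokines tested, 4 were higher in GHA501A (Ccl25, Cxcl3, Cxcl10 and Cxcl13) and 1 lower (Ccl9), beside the 18.2% and 10.8% of all genes, with a median change of 0.42 beside 0.01 over all genes. Cxcl13, a B cell attractant, had means of 3.91, 0, 199 and 421 TPM in AG untreated, AG treated, GHA501A untreated and GHA501A treated and was higher by 7.04 ± 0.86 (adjusted p = 0.00614). Ccl9 differed by -3.05 ± 0.41 (adjusted p = 0.0079). Ccl5, an attractant of T cells, and Cxcl16 did not pass (0.77 ± 0.46 and -0.72 ± 0.56, adjusted p = 0.275 and 0.386).

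Of 11 further cytokines tested, 6 were higher (Il1rn, Il11, Lif, Csf1, Csf2 and Csf3) and 1 lower (Il18), beside 18.2% and 10.8% of all genes, with a median change of 1.65. These calls compare means. In share of cells over 1 TPM, Il1rn was lower in both GHA501A sets (11.3% and 8.7%) than in AG (16.7% and 15.6%). Il11 was lower too (85.9% and 76.8%, against 98.5% and 95.3%). Lif, Csf1 and Csf3 were higher in both, and Csf2 overlapped. Lif and Csf1 were listed near 0 in AG, with means up to 0.284 TPM, and whether quantification has a part was not tested. Mif, the most abundant of the list, had means of 7166, 8626, 4858 and 5444 TPM in the same order and did not pass (-0.61 ± 0.33, adjusted p = 0.233). Il18 differed by -1.74 ± 0.35 (adjusted p = 0.0256), Il11 by 1.65 ± 0.34 (adjusted p = 0.0265) and Il1f9 by -0.70 ± 0.46 (adjusted p = 0.322). Between the classes 3 cytokines were lower in fibroblast-marker-high cells, which were Csf2, Il24 and Il23a, by -7.87 ± 0.57, -7.80 ± 0.43 and -6.35 ± 0.76 (adjusted p = 0.0292, 0.0292 and 0.0434), beside 1.06% of all genes called lower. In GHA501A the Csf2 mean of 417 TPM in keratinocyte-marker-high cells came from 14.3% of them, against 9.32% positive and a mean of 0.464 TPM in fibroblast-marker-high cells. With no filter on genes, or without AG untreated or AG treated, 0 genes were called between the classes by limma.

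Of 13 receptors tested, 2 were higher in GHA501A (Il1r1 and Il6st) and 1 lower (Ackr3), counts close to the 18.2% and 10.8% of all genes, with a median change of 0.66. The receptor of Il1a, Il1r1, had means of 0.0851 and 0.288 TPM in AG and 165.3 and 184.4 TPM in GHA501A and was higher by 7.21 ± 0.33 (adjusted p = 0.00181). It was thus listed near 0 in AG, and whether quantification has a part in its difference was not tested. The scavenger receptor Ackr3, which binds Cxcl12, differed by -1.84 ± 0.34 (adjusted p = 0.0199). Cxcr2, the receptor of Cxcl1 and Cxcl5, was listed above 1 TPM in all cells and did not pass (-1.36 ± 0.38, adjusted p = 0.0621), and neither did Tnfrsf1a (0.24 ± 0.33, adjusted p = 0.624). Between the classes Lifr was the 1 receptor called, 3.05 ± 0.39 higher in fibroblast-marker-high cells (adjusted p = 0.0474), beside 0.947% of all genes called higher. While 11 of the 13 had a change above 0, the median over all genes was also above 0 (0.11, beside 0.99 for the 13).

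Of 16 NF-κB regulators tested, 6 were higher in GHA501A (Nfkb2, Nfkbia, Tnip1, Ikbkb, Ikbkg and Map3k7) and 0 lower, beside 18.2% and 10.8% of all genes, with a median change of 0.84. Except for Nfkbia, these 6 genes were listed near 0 in AG, with means from 0 to 0.0686 TPM, and had means from 1.99 TPM (Tnip1 untreated) to 34.3 TPM (Nfkb2 untreated) in GHA501A. Whether quantification has a part in their differences was not tested. Nfkbia, the inhibitor that NF-κB itself induces, had means of 407, 247, 1146 and 1227 TPM in the 4 sets and was higher by 1.90 ± 0.38 (adjusted p = 0.0246). Rela (-0.96 ± 0.42, adjusted p = 0.159), Nfkbib (0.45 ± 0.33, adjusted p = 0.361) and Myd88 (0.20 ± 0.33, adjusted p = 0.675) did not pass. In none of the 4 lists did a gene pass between treated and untreated cells, where 0 of all genes were called by limma.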

How the data were processed

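The data are RNA-seq of single mouse cells labelled keratinocytes, captured on a microfluidic C1 chip, amplified with SMART-Seq v4 and sequenced in pairs. Doublets and dead cells had been excluded by imaging. The authors checked reads with FastQC, trimmed them with Cutadapt, aligned them to GRCm38 with TopHat, dropped reads with several positions, counted genes with featureCounts and deposited TPM values. Versions are not given in the sources used here. Each cell sums to 1000000 TPM, so the depth per cell is unknown, and intervals cover the counting of cells only. Series and treatment came from the sample labels. The table has 294 cells, of which 278 matched a label, 16 columns matched none and were not used, and 8 cells had conflicting labels.

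Genes over 1 TPM in more than 5 of the 270 cells were kept. Cells were classed by mean log2(TPM + 1) of fibroblast minus keratinocyte markers (over 1 or under -1). Set or class means, log2(mean TPM + 1), were fitted with limma 3.58.1 (R 4.3.3) with Benjamini-Hochberg adjustment. The fits were checked on made-up data built from their own coefficients, with 200 of the 12355 genes changed. At the residual spread of these sets, the treatment and series fits recovered 0% of the 200 changes of 3 or 6 log2 units. The series fit of the real data called 3580 genes, so this 0% does not measure its power. The class fit and the series fit within keratinocyte-marker-high cells recovered 0% at 3, and 71.5% and 66.5% at 6. With a residual standard deviation of 0.1 every fit recovered 100%. The labels' cell numbers name cells and pair nothing. For likeness, members positive in at least 27 cells over both series together were used, each in the series with more positive cells. Genes over 1 TPM in at least 10% of the cells of that series were compared. Up to 2 genes with the highest Pearson's r of at least 0.4 were named. Of each pathway list the 4 genes with the highest mean TPM were named, and the called genes after their values were seen. The members, lists and tests were chosen with earlier results of these data known. Alternatives covered the pseudocount, filter, scale, class limit, treatment term, conflicting cells and each set left out.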

Additional observations from a re-analysis of the deposited data

Results flagged for a closer look

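The share of cells positive for Il6 moved in opposite directions with 4-OHT in the 2 series. It was 25.8 points higher in treated than in untreated GHA501A cells, and the difference in AG was -7.58 points. Each series has 1 set per arm, and the difference between the series was not tested. At over 0 TPM the GHA501A shares were 54.9% and 71%, with overlapping intervals, and the AG intervals at over 1 TPM (2.51 to 16.8 and 0 to 5.6) overlap too. At over 1 TPM both marker classes of GHA501A showed the higher treated share, from 1 of 9 to 8 of 12 keratinocyte-marker-high cells and from 27 of 62 to 36 of 56 fibroblast-marker-high cells. The positive treated keratinocyte-marker-high cells had a median of 4.15 TPM. At over 10 TPM the treated share was higher in fibroblast-marker-high cells (19.4% and 33.9%) but not in keratinocyte-marker-high cells (11.1% and 8.33%).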

How the results depend on the processing

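The number of genes called was 0 for treatment, 3580 for series, 248 for class and 2217 for series within keratinocyte-marker-high cells. It moved to 5539 for series with the mean of log2(TPM + 1), to 0 for class with no filter on genes and 531 without the treatment term, and to 1262 within keratinocyte-marker-high cells with only genes over 5 TPM in a cell of each series, an alternative chosen after seeing the data. Leaving out AG untreated or AG treated gave 0 to 0 genes for class and for series within keratinocyte-marker-high cells. With 1 set left out of the 4, treatment and series had no residual degree of freedom and no count. The library series was the block of the treatment fit, and without the block 0 genes were called as well. The cell numbers in the labels are only names, so no other pairing was run. The causes were not tested.

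For treatment, the direction reversed with the mean of log2(TPM + 1) for Ccl2 (0.13), Ccl7 (0.18), Cxcl12 (0.05), Il1a (0.01), Il6 (0.33) and Tslp (0.11), with the conflicting cells placed by name for Il1a (0.06) or by treatment label for Il6 (0.24), and with a pseudocount of 0.1 for Il33 (-0.00). Within keratinocyte-marker-high cells Il1a ranged from -1.04 to 1.72 with 1 set left out and was -0.16 without AG untreated.

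Between series, the call of Cxcl1 was lost with a pseudocount of 0.1, no filter or no treatment term (adjusted p from limma of 0.0569, 0.0641 and 0.0712). That of Il1a was lost with a pseudocount of 0.1, no filter, the conflicting cells placed by name, or genes of both series (0.0907, 0.101, 0.0704 and 0.0547). Cxcl5 (4.01, adjusted p = 0.00449) and Tslp (1.58, adjusted p = 0.00943) passed with the mean of log2(TPM + 1). The class call of Ccl7 was lost with no filter, the mean of log2(TPM + 1), and class limits of 0 and 2 (adjusted p of 0.0681, 0.0582, 0.0748 and 0.0807). On the mean of log2(TPM + 1) Ccl2 (4.64), Il1a (-4.75) and Tslp (-2.21) passed for class. Depth per cell is unknown, so an absent gene may be one not captured.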

Other observations

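The 8 AG cells whose name and treatment label disagree were in no comparison. Cxcl5 was over 1 TPM in all 8 of them (7.98 to 3854 TPM, median 113.4 TPM), Cxcl1 and Il1a in 3 each, Ccl2 in 2, and Ccl7, Cxcl12, Il33 and Il6 in 1 each. Tslp was found in 0 of 8, with an exact upper limit of 36.9% (37.5% by 3 counts of the total). The highest single values were 830 TPM of Cxcl1, 1658 TPM of Il1a and 97.2 TPM of Il6.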
